A study of Mus musculus with 39 samples.

Results

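The 8 genes that encode the muscle troponins of the mouse were followed in the gubernaculum, the cord of mesenchyme and muscle that anchors the testis to the inguinal region, with the testis as reference. They were taken by symbol: Tnnt3, Tnnt1 and Tnnt2 for the fast, slow and cardiac forms of troponin T, Tnni2, Tnni1 and Tnni3 for the same forms of troponin I, and Tnnc2 and Tnnc1 for the fast and the slow and cardiac forms of troponin C. Each symbol had 1 entry in both deposited count tables, so the set is 8 of the 21561 Ensembl genes that the tables share. The series holds 39 mRNA libraries in 13 groups of 3 biological replicates, 15 from gubernaculum and 24 from testis, all from untreated male mice on a C57BL/6J background. Gubernaculum groups were WT, INSL3-KI and INSL3-KO at P8 (postnatal day 8) and WT and INSL3-KI at P23. INSL3-KI mice were homozygous for a minke whale INSL3 coding sequence placed at the native Insl3 locus instead of the mouse one, with the selection cassette removed by Cre. The crosses also gave WT littermates, and whether the WT libraries came from these is not stated for the ages sampled. How the INSL3-KO allele was made is not given in the sources used here, and INSL3-KO gubernaculum at P23 was not analysed here. Testis groups were the same 3 genotypes at P8 and P23 and WT and INSL3-KI at P40. INSL3 is the Leydig cell hormone that acts on the gubernaculum through its receptor RXFP2, and the series asks what the replaced or absent hormone changes in the tissues of testicular descent.

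Troponin is the calcium switch of striated muscle. Troponin C binds calcium, troponin I holds actin and myosin apart until it does, and troponin T ties the complex to tropomyosin on the thin filament. Fast and slow skeletal fibres use their own forms of T, I and C, while the heart uses Tnnt2, Tnni3 and Tnnc1, and Tnnt2 is also made for a time in embryonic and neonatal skeletal muscle. Smooth muscle contracts without troponin. In rodents the outer layer of the gubernaculum becomes the cremaster, a skeletal muscle.

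The genes lie in pairs on GRCm38, the build named in the submitters' processing notes. Tnni1 (chr1:135779434-135810989, plus strand) and Tnnt2 (chr1:135836354-135852260, plus strand) lie 25364 bases apart. Tnnt1 (chr7:4504570-4516382, minus strand) and Tnni3 (chr7:4518305-4524229, minus strand) lie 1922 bases apart. Tnni2 (chr7:142441808-142444410, plus strand) and Tnnt3 (chr7:142498836-142516009, plus strand) lie 54425 bases apart. Tnnc1 (chr14:31208312-31211729, plus strand) and Tnnc2 (chr2:164777161-164779967, minus strand) stand alone. Tnnc2 shares 592 of its 800 exon bases with Ube2c, a cell-cycle gene on the opposite strand, and the strand setting of the counting is not given in the sources used here. In the WT testis at P8 Ube2c had 2477, 3508 and 3239 counts while Tnnc2 had 2, 0 and 5. Tnni3 shares 86 of its 2063 exon bases with Dnaaf3 on the same strand.

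RefSeq's promoter table (GRCm38.p6) had an entry for 6 of the 8 genes, the exceptions being Tnni2 and Tnnt3. The stretches just before the start are shown for 4 genes that were lower in INSL3-KI gubernaculum at P8. These are the 2 with the largest estimated falls and the 2 with the smallest among the lower troponins. Tnni2 and Tnnt3, whose falls had intervals that overlap those of the largest, could not be shown. Each is written 5′ to 3′ on the strand of the gene and comes from the 250 bases before a RefSeq start, the first one listed where a gene has 2. Those of Tnnc1 and Tnnt2 run up to that start, while those of Tnni1 and Tnnt1 stop 19 and 29 bases short of it, at the first base that the gene annotation counts as exon. Capitals mark E-boxes (CANNTG, the site of the MyoD family) and M-CAT sites (CATTCC on either strand, the site of TEAD factors); none of them overlap.
Tnni1, chr1:135799171-135799401, plus strand: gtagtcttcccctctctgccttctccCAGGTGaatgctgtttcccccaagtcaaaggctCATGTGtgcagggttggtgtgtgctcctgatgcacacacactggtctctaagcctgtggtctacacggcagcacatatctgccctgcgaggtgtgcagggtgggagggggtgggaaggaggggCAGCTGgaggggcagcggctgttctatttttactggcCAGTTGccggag
Tnnc1, chr14:31208062-31208311, plus strand: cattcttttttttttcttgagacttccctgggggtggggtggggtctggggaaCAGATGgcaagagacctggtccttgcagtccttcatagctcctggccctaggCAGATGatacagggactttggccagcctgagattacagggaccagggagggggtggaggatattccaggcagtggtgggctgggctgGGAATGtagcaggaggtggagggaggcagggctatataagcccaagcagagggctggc
Tnnt1, chr7:4516005-4516225, minus strand: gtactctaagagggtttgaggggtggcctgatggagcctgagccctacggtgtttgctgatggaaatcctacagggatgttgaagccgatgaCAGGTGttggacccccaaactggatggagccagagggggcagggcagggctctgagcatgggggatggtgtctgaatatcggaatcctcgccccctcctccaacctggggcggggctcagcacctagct
Tnnt2, chr1:135836084-135836333, plus strand: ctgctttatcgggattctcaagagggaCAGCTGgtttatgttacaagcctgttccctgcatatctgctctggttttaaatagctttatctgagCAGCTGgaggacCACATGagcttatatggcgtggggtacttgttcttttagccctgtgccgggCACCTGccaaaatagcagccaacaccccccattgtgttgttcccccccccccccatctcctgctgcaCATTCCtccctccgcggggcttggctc
The stretch of Tnni1, 231 bases long, held 4 E-boxes, that of Tnnc1, 250 bases long, held 2 E-boxes and 1 M-CAT site, that of Tnnt1, 221 bases long, held 1 E-box, and that of Tnnt2, 250 bases long, held 4 E-boxes and 1 M-CAT site. Over 27025 RefSeq promoters cut to 250 bases, 66.0% held an E-box and 12.6% an M-CAT site. Counted over their whole 250 bases, the 4 windows held the same numbers of E-boxes and M-CAT sites, and none held a MEF2 site or a CArG box, which 3.01% and 1.4% of those promoters held. TATAAA, held by 13.0% of them, stood in 1 of the 4 windows, that of Tnnt1, where it begins at position -30 from the start and so runs past the end of the stretch shown. Every one of the 4 held an E-box, whether the gene fell more or less, and a match says only that these letters stand in the window.

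Library totals ran from 29861447 to 45260372 counts, and genes at a few counts carry wide counting error. WT and INSL3-KI gubernaculum stood in a first table, and INSL3-KO libraries in a second, with the shared genes holding 94.2% to 97.9% of the counts. WT testis at P23 also stood in the second table. Genotype and table therefore cannot be told apart where INSL3-KO is compared with another genotype in the gubernaculum or the P8 testis, or where INSL3-KI is compared with WT in the P23 testis. Insl3 itself, the targeted gene, had 2722 to 3524 counts in the WT testis at P8 and 15 to 33 in INSL3-KI, whose hormone is not of mouse sequence. The 3 P8 testis libraries labelled INSL3-KO still held 613 to 906 Insl3 counts, and the 3 at P23 held 0 to 5. Some gubernaculum libraries carried markers of other tissue. The epididymal gene Crisp1 had 0, 4 and 33293 counts in WT P23 replicates 1, 2 and 3 and 81321, 23 and 312449 in INSL3-KI P23, and the adipocyte hormone Adipoq had 63284 counts in INSL3-KI P23 replicate 2 against 29263 and 2839 in the other 2. Results at P23 are therefore also given without single libraries.

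Troponin transcripts were among the most abundant RNAs of the WT gubernaculum at P8. Their counts summed to 0.634%, 0.640% and 0.576% of the 3 libraries. On the FPKM scale, which divides by gene length and allows genes to be compared, Tnnc2 stood at 1912 ± 123 (SD, n = 3), rank 21 among all genes, and Tnnt3 at 1776 ± 163. The ranges of these 2 overlapped. Tnni2 followed at 1243 ± 119 FPKM and the slow Tnnt1 at 782 ± 82.4, each below the lowest library of the gene above it. Tnni1 stood at 439 ± 92.1 FPKM, Tnnc1 at 419 ± 76.6 and Tnnt2 at 325 ± 47.9, and the libraries of these 3 overlapped. The cardiac Tnni3 was the exception, at 2.04 ± 0.0255 FPKM and rank 10860. Beside the 15499, 13350 and 12157 counts of the cardiac Tnnt2 in the P8 WT libraries, the atrial hormone Nppa had 12, 7 and 0 counts and the atrial light chain Myl7 5, 4 and 0, while the cardiac myosin Myh6 had 929, 1137 and 1141.

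**Figure D1:**
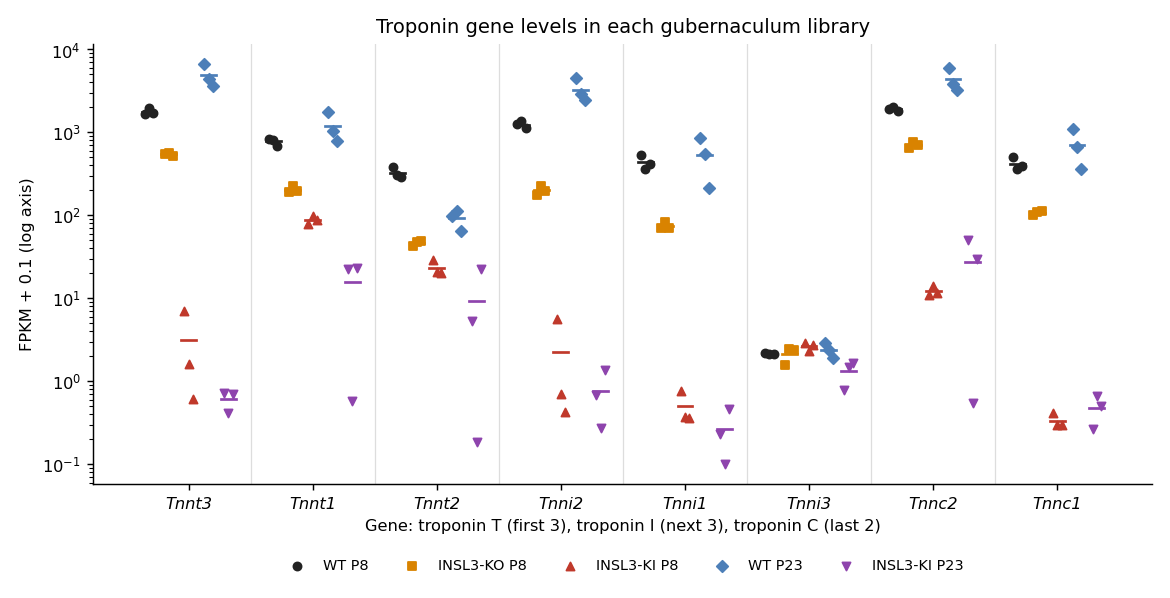
Levels of the 8 troponin genes in the 15 gubernaculum libraries. Each point is 1 library on a log axis of FPKM + 0.1, the genes stand along the other axis with their 5 groups side by side, and the short line is the group mean. Of the 8 genes, 7 sit lower in both P8 mutants than in WT, while Tnni3 stays near 2 FPKM in all 3 P8 groups.

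The first comparison asked what INSL3-KI changes in the gubernaculum at P8. All of the troponins but Tnni3 were lower in INSL3-KI than in WT, and they fell by very unequal amounts. A gene was called when the adjusted p of edgeR's quasi-likelihood test, over all genes, was under 0.01 and the fold change at least 2, and 7 of the 8 were called lower, against 9.7% of the 15500 genes tested. In bulk tissue fewer cells of a type and less RNA per cell cannot be told apart, here and in every later comparison. The sum of troponin counts was 0.0129%, 0.0129% and 0.0115% of the INSL3-KI libraries.

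The slow troponin I and the slow and cardiac troponin C fell furthest. Tnnc1 was counted 13257, 9737 and 10413 times in WT replicates 1, 2 and 3 and 8, 5 and 5 times in INSL3-KI (log2 fold change -10.97, 95% interval -11.53 to -10.41, adjusted p = 1.08e-07). Tnni1 had 21827, 15201 and 17295 counts in WT and 24, 7 and 10 in INSL3-KI (log2 fold change -10.51, interval -11.32 to -9.70, adjusted p = 3.6e-07). Neither gene was left with more than 24 counts in any INSL3-KI library.

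The fast troponin T and I followed, with more spread among the INSL3-KI libraries. Tnnt3 went from 64126, 79213 and 65904 counts in WT to 261, 52 and 18 in INSL3-KI (log2 fold change -9.50, interval -11.52 to -7.48, adjusted p = 5.37e-05). Tnni2 went from 33710, 38134 and 31358 counts to 145, 15 and 8 (log2 fold change -9.45, interval -11.47 to -7.43, adjusted p = 5.54e-05). The intervals of these 2 genes overlap those of Tnnc1 and Tnni1. In both genes INSL3-KI replicate 1 was the highest of its group, and Ttn, the giant spring of striated muscle, went the same way with 530, 67 and 46 counts. The fast troponin C did not share that spread. Tnnc2 had 48977, 55094 and 46715 counts in WT and 267, 310 and 246 in INSL3-KI (log2 fold change -7.65, interval -8.06 to -7.24, adjusted p = 1.08e-07). Its antisense neighbour Ube2c had 465 to 1409 counts in the same INSL3-KI libraries and 1592 to 2049 in the WT ones. The part of reads from Ube2c in the Tnnc2 counts was not tested.

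The slow and the cardiac troponin T fell least among the 7. Tnnt1 had 29242, 30482 and 24775 counts in WT and 2504, 2848 and 2409 in INSL3-KI, 11.9-fold lower (log2 fold change -3.57, interval -3.91 to -3.24, adjusted p = 8.39e-07). Tnnt2 had 15499, 13350 and 12157 counts in WT and 1100, 717 and 672 in INSL3-KI, 18.3-fold lower (log2 fold change -4.19, interval -4.61 to -3.78, adjusted p = 1.18e-06). Both intervals lie wholly above those of the other 5 genes called. The cardiac troponin I, Tnni3, was low in both groups, at 67, 72 and 62 counts in WT and 83, 64 and 63 in INSL3-KI. Its libraries overlapped, with a log2 fold change of -0.08 (interval -0.75 to 0.59, adjusted p = 0.835), and its sign turned with library-size scaling, which gave 0.24.

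INSL3-KO addresses the same tissue with the hormone absent by label, and there the same 7 genes were lower than in WT but by 3.02-fold to 7.59-fold. They were 7 of 8 troponins against 15.2% of the 15609 genes called lower in this comparison. Tnnt2 fell most, from the WT counts above to 1969, 2606 and 2572 counts (log2 fold change -2.92, interval -3.20 to -2.65, adjusted p = 2.19e-06). Tnni2 had 5242, 7683 and 6745 counts (-2.80 on the log2 scale, interval -3.05 to -2.54, adjusted p = 2.08e-06), and Tnni1 had 3063, 4266 and 3579 (-2.72, interval -3.10 to -2.34, adjusted p = 1.05e-05). No INSL3-KO library of these genes reached the lowest WT library, and the share of all genes without overlap is not given here.

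The remaining 4 fell by less in INSL3-KO. Tnnt1 had 7180, 9727 and 8759 counts (log2 fold change -2.12, interval -2.35 to -1.89, adjusted p = 3.4e-06), and Tnnc1 had 2868, 3650 and 3667 (-2.12, interval -2.44 to -1.79, adjusted p = 1.54e-05). Tnnt3 had 20407, 26689 and 24318 counts (-1.95, interval -2.16 to -1.74, adjusted p = 3.67e-06). Tnnc2 fell least, to 18245, 24873 and 22753 counts (log2 fold change -1.60, interval -1.80 to -1.40, adjusted p = 6.33e-06). So Tnnt2, next to last in INSL3-KI, was in INSL3-KO among the 3 genes with the largest falls, whose intervals overlap. Tnni3 had 54, 101 and 91 counts, within reach of WT, with a log2 fold change of -0.12 (interval -0.77 to 0.53, adjusted p = 0.712). When all 5 gubernaculum groups shared 1 fit, and so the wide spread of the P23 groups, 3 of the 7 calls were left, namely Tnni1 (adjusted p = 0.00205), Tnni2 (0.00943) and Tnnc1 (0.000926), while Tnnc2 had an adjusted p of 0.145.

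INSL3-KI set directly against INSL3-KO tests the difference between the mutants. The same 7 troponins were lower in INSL3-KI, against 10.5% of the 15642 genes tested. Tnnc1 was 475-fold lower (log2 fold change -8.89, adjusted p = 4.27e-07), Tnni1 227-fold (-7.82), Tnnt3 191-fold (-7.58), Tnni2 103-fold (-6.68) and Tnnc2 68.2-fold (-6.09). The slow and cardiac troponin T differed far less. Tnnt1 was 2.82-fold lower (log2 fold change -1.49, interval -1.74 to -1.25, adjusted p = 3.47e-05) and Tnnt2 2.48-fold lower (-1.31, interval -1.66 to -0.96, adjusted p = 0.000273). With all 5 groups in 1 fit these 2 calls were lost, at adjusted p = 0.152 for Tnnt1 and 0.262 for Tnnt2. Tnni3 did not separate the mutants, with a log2 fold change of 0.00 (interval -0.62 to 0.63, adjusted p = 0.989).

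**Figure D2:**
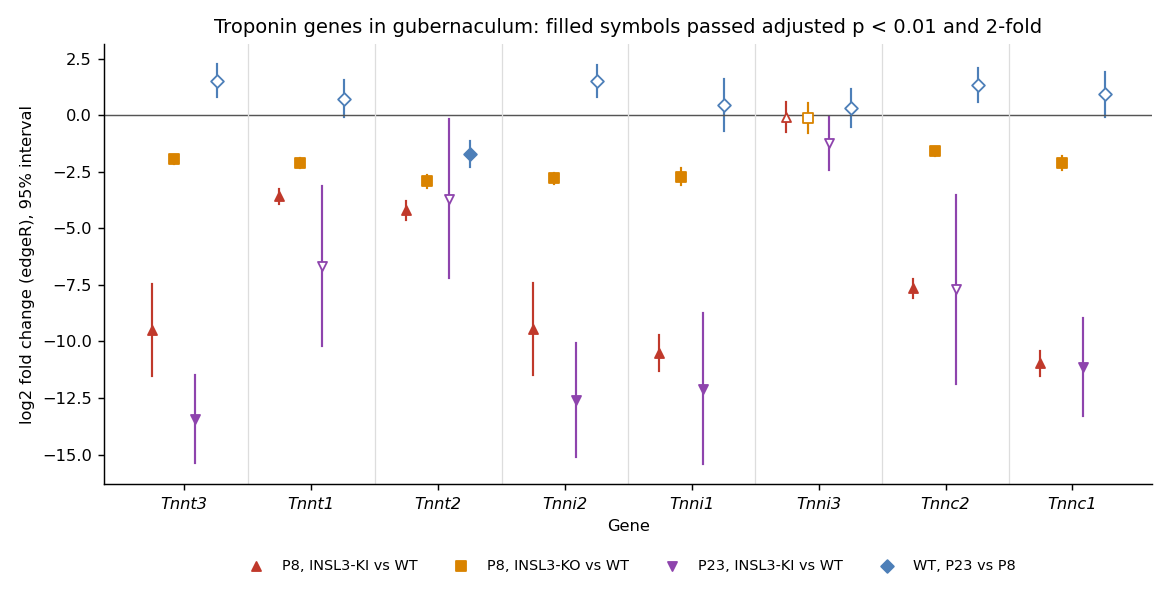
Log2 fold changes of the 8 troponin genes in 4 gubernaculum comparisons (INSL3-KI and INSL3-KO against WT at P8, INSL3-KI against WT at P23, and WT at P23 against P8), with 95% intervals from edgeR as vertical lines and filled symbols for genes that passed both thresholds. Points under 0 are lower in the first-named group, and the P8 INSL3-KI points spread from -10.97 for Tnnc1 to -3.57 for Tnnt1 while the P8 INSL3-KO points lie between -2.92 and -1.60, with Tnni3 near 0 in both.

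Markers of other cells moved with these results. The summed level of 11 skeletal fibre markers was 25276 to 25429 CPM (counts scaled by the library total) in WT at P8, 1537 to 2477 in INSL3-KI and 6385 to 6934 in INSL3-KO. Troponin in INSL3-KO, at 0.150% to 0.176% of counts, therefore stood between WT and INSL3-KI as these markers did. The 9 smooth muscle markers summed to 3350 to 3784 in WT, 18974 to 24054 in INSL3-KI and 7706 to 8242 in INSL3-KO, with Myh11, the smooth muscle myosin, at 360, 1000 and 1373 counts in WT and 163665, 212394 and 164160 in INSL3-KI. The 7 adipocyte markers summed to 1321 to 1785 in WT, 2431 to 3151 in INSL3-KI and 6101 to 6574 in INSL3-KO. Gene by gene they differed more, with a median log2 fold change against WT of 7.04 in INSL3-KI and 8.03 in INSL3-KO. Car3 was the exception in INSL3-KI (-0.41, not called). The 11 cardiomyocyte markers summed to 30.7 to 36.3 in WT, 11.4 to 23.8 in INSL3-KI and 13.5 to 14.7 in INSL3-KO. Of the 5 tested in INSL3-KI, Myh6 was lower (log2 fold change -3.16) and Ryr2 (3.18) and Corin (3.07) were higher. Mybpc3 (-1.67) and Sbk2 (-2.56) were not called. In INSL3-KO Myh6 was lower (-2.40) and Corin higher (2.94), and Ryr2 (1.27), Mybpc3 (-1.43) and Sbk2 (-1.83) were not called. The 10 epididymal markers summed to 1.93 to 3.95 in WT, where 5 or 6 of them were at 0, to 717 to 1792 in INSL3-KI and to 991 to 1095 in INSL3-KO. In INSL3-KI Crisp1 (log2 fold change 14.89), Defb1 (6.07) and Lcn5 were called higher. Ros1 (1.13), Rnase10 (-1.61) and Spink2 (-2.62) were not called. The part of these marker lists in the results was not tested.

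**Figure D3:**
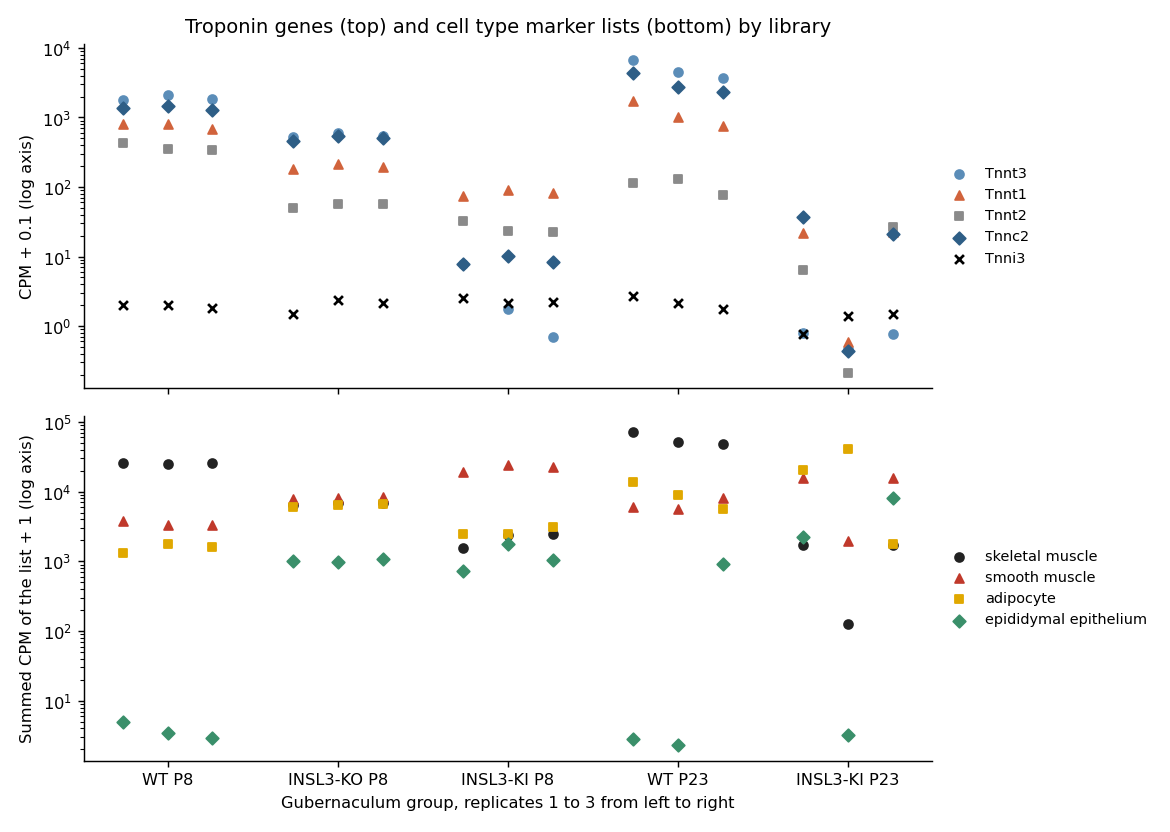
Levels of 5 troponin genes (upper panel, CPM + 0.1) and summed levels of 4 marker lists (lower panel, CPM + 1) in the 15 gubernaculum libraries on log axes, with 1 symbol per library and replicates 1 to 3 from left to right. Skeletal fibre markers fall from 25276 or more in WT at P8 to 2477 or less in INSL3-KI, while smooth muscle markers are at least 18974 there against at most 3784 in WT.

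The mix of forms within each subunit also differed between INSL3-KI and WT. Shares were taken per library as the part of the FPKM of a subunit that one form held, and compared with exact two-sided permutation tests of the 3 libraries against 3, for which 0.1 is the smallest p possible, so no share difference can pass 0.05. Tnnt1 held 29.0%, 26.5% and 25.8% of troponin T in WT at P8 and 68.9%, 81.8% and 80.9% in INSL3-KI, a difference of 50.1 percentage points (exact p = 0.1). Tnnt3 held 61.6% of it on average in WT and 6.13%, 1.23% and 0.479% in INSL3-KI. Tnnt2 held 11.3% ± 1.65 in WT and 20.2% ± 4.21 in INSL3-KI (SD, n = 3, exact p = 0.1). The troponin T that was left in INSL3-KI was thus mostly the slow form, with no overlap between the groups for any of the 3.

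In troponin I and C the slow form held the smaller share in INSL3-KI. The slow Tnni1 held 26.0% ± 4.69 of troponin I in WT and 8.06% ± 0.706 in INSL3-KI (difference -18.0 points, exact p = 0.1, and -24.4 points with raw counts). The cardiac Tnni3 held 31.0% to 81.7% of what was left in INSL3-KI, against 0.121% on average in WT, while its own counts were 62 to 83 in both groups. That share rests on 252, 86 and 81 troponin I counts in all. Tnnc1 held 18.0% ± 2.99 of troponin C in WT and 1.96% ± 0.737 in INSL3-KI (difference -16.0 points, exact p = 0.1).

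In INSL3-KO the shares of slow troponin T and I overlapped those of WT. Tnnt1 held 25.5% ± 1.26 of troponin T (difference -1.64 points, exact p = 0.4), and Tnni1 held 27.0% ± 0.737 of troponin I (difference 0.982 points, exact p = 0.9). Tnnt2 was lower in share, at 5.82% ± 0.511, and so was Tnnc1, at 13.2% ± 0.578, and neither overlapped WT (exact p = 0.1 for each).

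**Figure D4:**
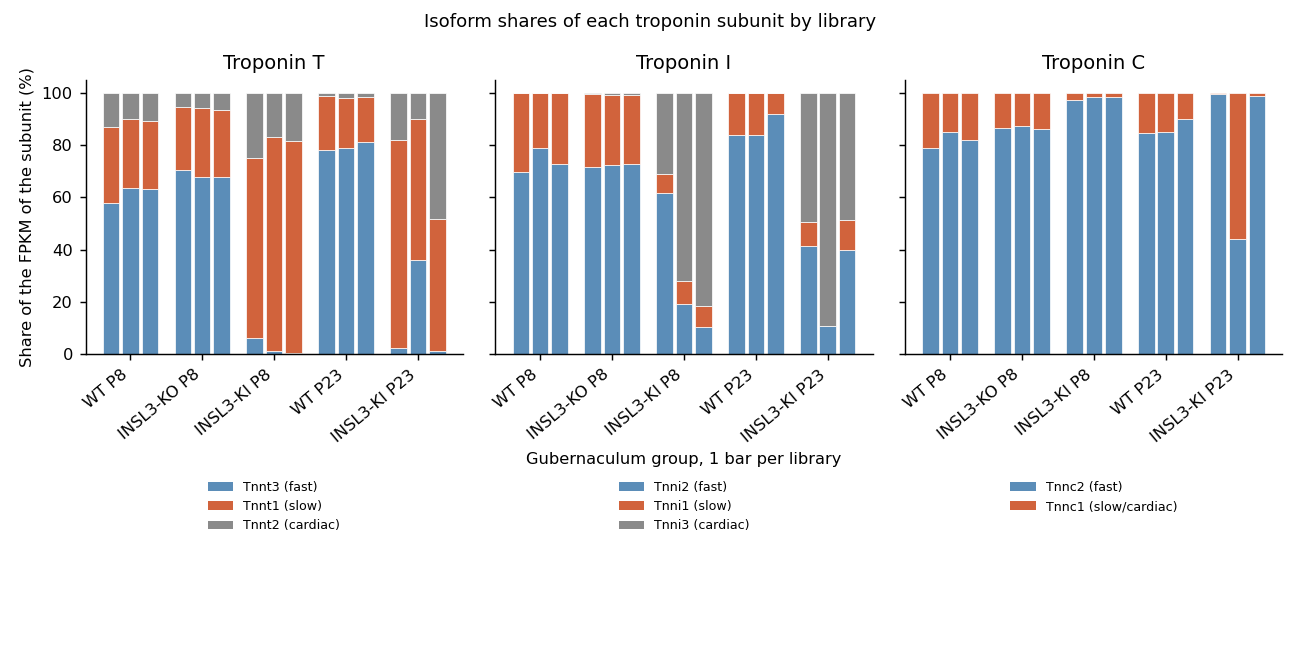
Shares of the fast, slow and cardiac forms in the FPKM of troponin T, I and C, in percent, with 1 stacked bar per gubernaculum library. Tnnt1 fills 68.9% to 81.8% of the troponin T bars of INSL3-KI at P8 against 25.8% to 29.0% in WT, and the INSL3-KI bars at P23 rest on few counts.

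In WT gubernaculum the comparison of P23 with P8 shows the change with age. Only Tnnt2 passed both thresholds, 1 of 8 troponins, against 10.5% of the 14941 genes tested (4.34% called lower). It went from 379, 306 and 289 FPKM at P8 to 99.1, 114 and 65.0 at P23, 3.27-fold lower (log2 fold change -1.71, interval -2.28 to -1.14, adjusted p = 0.00306). The call was lost without any 1 of the 3 WT P8 libraries, and 3 troponins were called without WT P23 replicate 1 or replicate 3. The fast forms had higher values at P23 without being called. Tnnt3 had 1674, 1964 and 1689.8 FPKM at P8 and 6679, 4350.2 and 3637 at P23 (log2 fold change 1.53, interval 0.80 to 2.26), Tnni2 changed by 1.51 (interval 0.78 to 2.23), and both had an adjusted p of 0.01003, just above the threshold. Tnnc2 changed by 1.33 (interval 0.59 to 2.07, adjusted p = 0.0164). The P23 libraries of these 4 genes did not overlap those of P8, and the share of all genes without overlap is not given here. DESeq2 called 4 of the 8 here and limma on log2(FPKM + 1) called 1.

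The slow forms had wide ranges at P23. Tnnt1 had 1754, 1053 and 787 FPKM (log2 fold change to P8 0.73, adjusted p = 0.141), Tnnc1 had 1112, 669.9 and 358 (0.92, adjusted p = 0.132), and Tnni1 had 845, 551 and 214 (0.45, adjusted p = 0.495). WT P23 replicate 3, the library with epididymal RNA, was the lowest in all 3 and replicate 1 the highest. By counts the fast Tnnt3, Tnni2 and Tnnc2 had the same order of replicates, so it was not particular to the slow forms. Within troponin T the share of Tnnt2 was 11.3% ± 1.65 at P8 and 1.56% ± 0.460 at P23, that of Tnnt1 was 27.1% ± 1.70 and 19.1% ± 1.51, and Tnnt3 held 79.4% at P23. Within troponin I the share of Tnni1 was 26.0% ± 4.69 and 13.4% ± 4.59. The groups did not overlap in these shares (exact p = 0.1 for each of Tnnt2, Tnnt1 and Tnni1), while the share of Tnnc1 did overlap, at 13.4% ± 3.06 (exact p = 0.2).

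At P23 the INSL3-KI gubernaculum held few troponin transcripts, 0.00664%, 0.000317% and 0.00741% of counts against 1.82%, 1.17% and 0.921% in WT. With edgeR, 4 of 8 troponins were called lower, against 2.35% of the 15082 genes tested. Tnnt3 had 233235, 166987 and 137879 counts in WT and 25, 13 and 27 in INSL3-KI (log2 fold change -13.43, interval -15.35 to -11.50, adjusted p = 0.00134). Tnni2 had 115684, 78629 and 66811 counts in WT and 15, 5 and 40 in INSL3-KI (-12.58, interval -15.09 to -10.08, adjusted p = 0.00263). The other calls were Tnni1, with 6, 0 and 15 INSL3-KI counts (log2 fold change -12.09, interval -15.43 to -8.75, adjusted p = 0.00652), and Tnnc1, with 5, 15 and 13 (-11.12, interval -13.27 to -8.97, adjusted p = 0.00242). The count of 0 for Tnni1 in a library of 35310629 counts allows up to 3 counts, or 0.085 CPM, by counting error only.

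The other 4 were not called, and 3 of them had 1 INSL3-KI library far below the other 2. Tnnt1 had 779, 17 and 917 counts in INSL3-KI P23 against 58994, 36674 and 27686 in WT (log2 fold change -6.67, interval -10.22 to -3.12, adjusted p = 0.0365). Tnnc2 had 1336, 12 and 857 counts against 150486, 101441 and 85564 (-7.69, interval -11.86 to -3.53, adjusted p = 0.0381), and Tnnt2 had 227, 4 and 1079 against 3881, 4751 and 2775 (-3.68, interval -7.19 to -0.17, adjusted p = 0.135). Replicate 2, the library richest in adipocyte markers, was the lowest INSL3-KI library for each of these genes. Without it, 6 troponins were called, adding Tnnt1 (log2 fold change -6.16, adjusted p = 0.00622) and Tnnc2 (-7.18, adjusted p = 0.00655). The share of all genes called without single libraries is not given here. Without WT P23 replicate 1, 2 or 3 the count was 2, 0 or 2, and without INSL3-KI P23 replicate 1 or 3 it was 1 or 3. Tnni3 had 89, 75 and 62 counts in WT and 24, 46 and 56 in INSL3-KI (-1.24, adjusted p = 0.132). In all 8 genes the INSL3-KI libraries lay below the WT libraries, and the share of all genes tested that did so is not given here.

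At P23 the same sums varied within a group. The skeletal fibre markers summed to 71347, 52229 and 48547 CPM in WT replicates 1, 2 and 3 and to 1717, 126 and 1714 in INSL3-KI. The adipocyte markers summed to 20209, 40588 and 1755 in INSL3-KI, and the smooth muscle markers to 15639, 1924 and 15662. The epididymal markers summed to 1.87, 1.31 and 919.9 in WT and to 2242, 2.24 and 8090.1 in INSL3-KI. The part of these sums in the P23 results was not tested. Replicate 2, which had 17 Tnnt1 and 12 Tnnc2 counts, was low in both muscle sums and high in the adipocyte sum. Skeletal muscle markers were the higher of the 2 muscle sums in both WT groups, and smooth muscle markers in every INSL3-KI and INSL3-KO library. In INSL3-KI P23 replicate 2 both were small beside the adipocyte sum. In replicate 1 the adipocyte sum (20209) was also above the skeletal (1717) and smooth muscle (15639) sums. Which tissue these libraries held was not tested.

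Between P8 and P23 no troponin was called within INSL3-KI by edgeR, with 0 of 7 tested, 0 at an unadjusted p under 0.05, and 0 by DESeq2 and by limma. The background was 0% of the 15271 genes tested, so no gene of any kind was called. The log2 fold changes were -1.10 for Tnni1, -1.56 for Tnni2, -0.80 for Tnni3, -2.33 for Tnnt1, -1.16 for Tnnt2, -2.35 for Tnnt3 and 1.31 for Tnnc2, with adjusted p from 0.256 to 0.662, and Tnnc1 was below the filter. The difference of the INSL3-KI effect between P23 and P8 was tested as an interaction. edgeR called 0 of 8 against 0.281% of the 16016 genes tested. Of the 8, 4 were at an unadjusted p under 0.05, DESeq2 called 1 and limma 0, and the shares of all genes for these counts are not given here. Tnnt3 had the lowest adjusted p of the 8 and missed the threshold (log2 difference, P23 effect minus P8 effect, -3.94, interval -6.22 to -1.65, adjusted p = 0.0488). The differences were -3.12 for Tnni2, -3.12 for Tnnt1, -1.57 for Tnni1, -1.19 for Tnni3, 0.49 for Tnnt2, -0.18 for Tnnc1 and -0.07 for Tnnc2, with adjusted p from 0.143 to 0.984.

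Genes of the proteins that work with troponin were also lower in INSL3-KI at P8, by unlike amounts. Among 13 other fast-fibre genes 11 were lower in INSL3-KI, with a median log2 fold change of -7.15 against 0.02 over all genes. The fast myosin light chains Mylpf (-10.35) and Myl1 (-9.97) and the fast calcium pump Atp2a1 (-9.77) led it. Among 10 slow-fibre genes 9 were lower (median -8.28), led by the pump inhibitor Sln (-11.50), the slow light chain Myl3 (-10.07) and the Z-disc gene Myoz2 (-9.69). All 3 embryonic and neonatal myosins tested were lower (Myh3 -13.76, Myh8 -11.19, Myl4 -8.57). Beside these lists Tnnt3, Tnni2, Tnni1 and Tnnc1 lay below the medians of the fast-fibre and slow-fibre genes, and Tnnt1 and Tnnt2, at -3.57 and -4.19, lay above them.

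The thin filament itself split. Of 6 tropomyosins and actins 4 were lower, with Actc1 at -11.40, Acta1 at -4.03 and Tpm3 at -1.94 (median -1.58). Tropomyosin is the partner that troponin T binds, and its genes are also used outside striated muscle. Of 8 genes that build or cap thin filaments 7 were lower, led by Lmod3 (-10.87), Lmod2 (-10.70) and Klhl41 (-10.27), and Nebl, the nebulin relative of heart and non-muscle cells, was higher at 1.94. Of 6 troponin kinases and calmodulins 1 was lower, Prkaca, the catalytic subunit of PKA, at -2.88 (Calm2, at 0.67, was not called), and of 19 muscle regulators 16 were lower and none higher. The 3 furthest apart were Myf6, a myogenic factor of mature fibres, Vgll2, a partner of TEAD factors, and Pax7, the satellite cell factor, which had 3747 to 6034, 2944 to 4030 and 1391 to 1677 counts in WT and 0 in every INSL3-KI library. Rxfp2, the INSL3 receptor, was lower (-4.70).

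The same lists were then set beside INSL3-KO. In INSL3-KI against INSL3-KO directly, 11 of 12 fast-fibre genes, 9 of 10 slow-fibre genes, all 3 embryonic and neonatal myosins, 4 of 6 tropomyosins and actins and 7 of 8 thin-filament builders were lower in INSL3-KI. Against WT, of the fast-fibre genes 10 of 13 were lower (median -1.95). The furthest apart were Myoz3, with 49, 104 and 119 counts in WT and 0 in every INSL3-KO library, Mylk2, the skeletal light chain kinase (-2.69), and Myh2 (-2.37, not called). Of the slow-fibre genes 8 of 10 were lower (median -1.76), led by Myh7b (-4.81), Myh7 (-3.42) and Mybpc1 (-2.83). All 3 embryonic and neonatal myosins were lower (Myh3 -5.72, Myh8 -3.78, Myl4 -3.65). Of the thin-filament builders 7 of 8 were lower (median -2.56), led by Klhl40 (-4.04), Lmod3 (-2.70) and Lmod2 (-2.58). Actc1 (-3.76), Acta1 (-1.83) and Tpm2 (-1.65) were lower among the 6 tropomyosins and actins, and 13 of 19 regulators were lower (median -1.62), led by Eya4 (-3.91), Vgll2 (-3.77) and Tead4 (-3.32). The 7 troponins called lay at -2.92 to -1.60 beside these medians. In the kinase and calmodulin list Prkg1 (-3.95) and Prkaca (-2.61) were lower and Calm2 was higher (1.49).

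With age in WT the partners of the fast troponins were called where the troponins themselves just missed. Of the 13 fast-fibre genes 10 were higher at P23 (median log2 fold change 2.30), led by the calcium buffer Pvalb (7.56) and the adult fast myosins Myh4 (5.94) and Myh1 (4.56). The embryonic and neonatal myosins fell with Tnnt2, with Myh3 at -4.38, Myl4 at -3.55 and Myh8 at -1.76, and Actc1, the cardiac and fetal skeletal actin, changed by -3.19. Of the 10 slow-fibre genes 2 were lower and none higher (median 0.43). At P23 in INSL3-KI against WT, 10 of 13 fast-fibre genes were called lower (median -11.93), 4 of 10 slow-fibre genes (median -8.82), 7 of 8 thin-filament builders and 6 of 19 regulators.

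The genes whose levels ran most like each troponin over the 15 gubernaculum libraries differed between forms. The search covered 14359 genes by Pearson's r on log2(CPM + 1), and the troponins themselves are left out of the neighbours named. Tnnt3 was nearest to Atp2a1 (r = 0.998), Cox6a2 and Apobec2, and Tnni2 was nearest to Atp2a1, Art1 and Ampd1 (each r = 0.997). Tnni1 was nearest to Lsmem1 (r = 0.996), Myoz2 and Actn2, and Tnnc1 to Lsmem1 (r = 0.998), Csrp3 and Abra. Tnni1 and Tnnc1 had r = 0.997 with each other, above the value of Tnni1 with Lsmem1. Tnnt1, Tnnc2 and Tnnt2 had other neighbours. Tnnt1 was nearest to Nexn (r = 0.991), Acta1 (0.982) and Fgf13 (0.978), Tnnc2 to Fabp3 (0.984), Plcd4 and Ckm, and Tnnt2 to Cobl, Fgfr4 (0.972) and Fras1. Tnni3 had no close neighbour, with B9d2 highest at r = 0.839. Fast and slow forms also ran close to each other, with r = 0.990 for Tnni1 with Tnni2 and 0.989 for Tnnt3 with Tnnc1. Tnnt1 and Tnnt2 ran less like Tnnt3 (r = 0.877 and 0.8015). The 15 points share groups, tables and the tissue mix given above, so these values describe likeness and carry no p. Acta1, the skeletal actin and second nearest to Tnnt1, also kept counts in INSL3-KI at P8, with 26412, 32377 and 42394 against 532260, 496651 and 490733 in WT.

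Against the WT testis at P8, 7 troponins were higher in the gubernaculum and Tnni3 was lower, so that all 8 were called against 28.4% of the 15624 genes tested (14.1% higher and 14.3% lower). Tnnt3 differed by a log2 fold change of 11.25, Tnni2 by 10.84, Tnnc1 by 9.47, Tnnt1 by 7.69, Tnni1 by 6.55 and Tnnt2 by 5.98. Tnnc2 had 2, 0 and 5 counts in the testis, and no fold is given for it. Tnni3 had 90.4, 69.9 and 51.9 FPKM in the testis against 2.06, 2.04 and 2.01 in the gubernaculum, 26.1-fold lower in the latter (log2 fold change -4.70). Tnni3 was the highest of the 8 in every testis group by FPKM, with Tnnt2 next.

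In the testis at P8 Tnnt2 was higher in INSL3-KI and in the libraries labelled INSL3-KO, while it was lower in the gubernaculum. At P8, 1 of 7 troponins tested was called in INSL3-KI against 6.29% of 15702 genes. This was Tnnt2, with 17.6, 13.7 and 17.9 FPKM against 8.17, 6.57 and 6.99 in WT (log2 fold change 1.06, adjusted p = 0.00704), and the call was lost without any 1 WT library or without INSL3-KI replicate 1 or 3, while 2 troponins were called without INSL3-KI replicate 2. In the P8 libraries labelled INSL3-KO 2 of 7 were called against 13.8% of 15723 genes, namely Tnnt2 at 16.4, 17.4 and 17.5 FPKM (2.46-fold higher, adjusted p = 0.000129) and Tnni1 at 1.40, 1.31 and 1.54 FPKM against 5.79, 7.66 and 7.05 in WT (-2.39, adjusted p = 0.000139). Tnni1 in INSL3-KI, at 1.95, 0.472 and 1.67 FPKM, lay below WT too but missed the threshold (-2.49, adjusted p = 0.0121). Tnni3 was 1.82-fold higher in the libraries labelled INSL3-KO, under the fold threshold (adjusted p = 0.00425), and in INSL3-KI it differed by 0.44 (adjusted p = 0.135). Tnnt3, Tnni2, Tnnt1 and Tnnc1 were not called in either mutant, at -1.71, -0.48, -0.11 and -1.28 in INSL3-KI and -0.87, -0.53, 0.17 and -0.34 in the libraries labelled INSL3-KO. Tnnc2 was below the filter. Fibroblast markers summed to 7965 to 24170 CPM in these WT testes, 3843 to 6628 in INSL3-KI and 6378 to 6577 in those labelled INSL3-KO, and their part was not tested.

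In the later testes 4 troponins were called higher in INSL3-KO at P23 and 4 in INSL3-KI at P40. At P23, 4 of 5 troponins tested were called higher in INSL3-KO, in a comparison in which 31.1% of 16732 genes were called higher. Tnni3 had 131, 146 and 127 FPKM against 12.1, 13.0 and 13.1 in WT, 7.39-fold higher (log2 fold change 2.89, adjusted p = 1.75e-10). Tnni1 was 12.2-fold, Tnnt2 6.10-fold and Tnnt1 6.07-fold higher. None of the WT and INSL3-KO libraries overlapped in these genes, and the share of all genes without overlap is not given here. In INSL3-KI at P23 edgeR called 0 of 5 against 20.6% of 16603 genes. There 3 were at an unadjusted p under 0.05 and 1 was called by DESeq2 and by limma, with no share of all genes given for these counts. Tnni3 had 30.6, 19.95 and 69.6 FPKM there (log2 fold change 1.16, adjusted p = 0.0490), Tnnt2 differed by 1.16 (adjusted p = 0.0161), Tnnt1 by 1.52 (0.0577), Tnni1 by 0.93 (0.273) and Tnnc2 by -0.17 (0.791). At P40 INSL3-KI gave 4 of 5 higher against 25.6% of 16677 genes. Tnni3 had 64.3, 117 and 104 FPKM against 13.1, 11.0 and 17.8 in WT, 4.77-fold higher (adjusted p = 0.000664). Tnni1 was 7.01-fold, Tnnt2 4.57-fold and Tnnt1 4.07-fold higher. Tnnc2 was not called in INSL3-KO at P23 (log2 fold change 0.43, adjusted p = 0.386) or in INSL3-KI at P40 (0.67, adjusted p = 0.130). Tnni2, Tnnt3 and Tnnc1 had 0 to 15 counts in every P23 and P40 testis library and were below the filter in each of these comparisons. Without WT P40 replicate 1 or INSL3-KI P40 replicate 2, 2 of these calls were left.

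Cell type markers of the testis moved with these changes. The germ cell markers summed to 6708 to 7662 CPM in WT at P23, 411 to 465 in INSL3-KO and 1689 to 2292 in INSL3-KI, and to 4955 to 6000 in WT and 545 to 1555 in INSL3-KI at P40. The Sertoli and Leydig cell markers summed to 1024 to 1125 in WT at P23 and 1998 to 2062 in INSL3-KO. Macrophage markers summed to 73.7 to 74.3 in WT at P23 and 847 to 894 in INSL3-KO. At P23 and at P40 Tnni3 and Tnnt2 were highest in the group with the lowest germ cell sum, and the part of either set of markers was not tested.

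**Figure D5:**
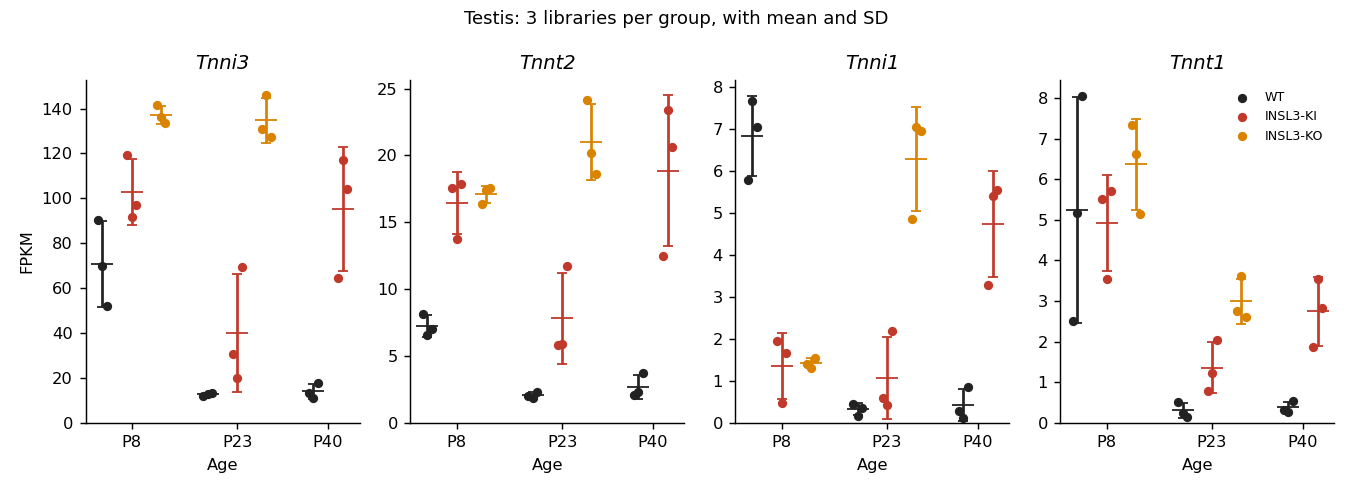
Levels of Tnni3, Tnnt2, Tnni1 and Tnnt1 in the 24 testis libraries, in FPKM on a linear axis by age and genotype, with 1 point per library and the group mean and SD as lines. Tnni3 lies at 51.9 FPKM or more in the P8 groups, at 12.1 to 13.1 in WT at P23, and at 127 to 146 in INSL3-KO at P23.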

How the data were processed

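Total RNA was extracted with TRIzol and sequenced as mRNA libraries, and per the submitters' notes reads were aligned with HISAT2 to GRCm38. The counting program, annotation and strand setting are not given in the sources used here. The authors deposited raw read counts per gene and FPKM values in 2 tables, which were joined on Ensembl ID. Tests used the deposited counts of all shared genes: edgeR 4.0.16 quasi-likelihood with TMM scaling and filterByExpr (minimum count 10, minimum total 15), only the groups compared in each fit, and p-values adjusted by Benjamini and Hochberg's method across every gene of the fit. Genes were called at an adjusted p below 0.01 with a change of 2-fold or more, as in the study's own rule. The percentages of all genes called are those of the main edgeR fits. None is given for the alternative fits, for unadjusted p or for libraries that do not overlap. Levels of different genes were compared on the authors' FPKM scale. Isoform shares used exact two-sided permutation tests (scipy 1.17.1). Alternatives were DESeq2 1.42.0, no filter, library size only, limma 3.58.1 on log2(FPKM + 1) and log2(FPKM + 0.1) with a mean FPKM of at least 0.1, a replicate block, all 5 gubernaculum groups in 1 fit, raw counts for shares, and each library left out. The edgeR and DESeq2 fits were tested on simulated data. The members, lists and tests were chosen with earlier results of these data known. The rule named all 8 troponins in every comparison, and of each list the 3 genes with the largest change and any called against it. Some lists are given by counts only, and some list genes that this rule would name are not reported here. CPM is the count scaled by the library total, and 0 counts allow up to 3 counts per library. R 4.3.3 and Python 3.11.15 were used.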

Additional observations from a re-analysis of the deposited data

Results flagged for a closer look

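In 6 pairs of comparisons every mutant library of a troponin gene lay on opposite sides of WT in 2 tissues or at 2 ages. None of these differences was itself tested, and the share of all genes that meet the same rule is not given here. Genotype and table cannot be told apart in the INSL3-KI testis at P23 or in INSL3-KO at P8. Tnnt2 was lower in the gubernaculum and higher in the testis of INSL3-KI mice at P8 (log2 fold change -4.19 and 1.06) and at P23 (-3.68 and 1.16, neither called), and in those labelled INSL3-KO at P8 (-2.92 and 1.30). Tnni3 in INSL3-KI at P23 changed by -1.24 in the gubernaculum and 1.16 in the testis, neither called. In the testis Tnni1 was below WT at P8 and above it later, by -2.49 at P8 (not called) and 2.81 at P40 in INSL3-KI, and by -2.39 at P8 and 3.61 at P23 in INSL3-KO.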

How the results depend on the processing

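The calls for INSL3-KI against WT (7 of 8 troponins), INSL3-KI against INSL3-KO (7) and WT gubernaculum against testis (8) at P8 kept their number with each library left out in turn and under the other settings, except that INSL3-KI against INSL3-KO gave 5 when the 5 gubernaculum groups shared a fit and 6 with limma on log2(FPKM + 1). INSL3-KO against WT gave 7 in every fit but that of all 5 gubernaculum groups, which gave 3. INSL3-KI against WT at P23 gave 4, 6 with DESeq2, 7 in the fit of all 5 groups, and 0 to 6 with single libraries left out. WT at P23 against P8 gave 1, 4 with DESeq2, 3 without a filter, 3 with library size only, 0 with all 5 groups in 1 fit, and 0 to 3 with single libraries left out. In the testis INSL3-KI gave 1 at P8, 2 with DESeq2 and with limma on log2(FPKM + 1), and 0 to 2 with a library left out. At P23 INSL3-KI gave 0, and 1 with DESeq2, with library size only and with both forms of limma. INSL3-KO gave 2 to 3 at P8 and 4 at P23, and INSL3-KI 2 to 4 at P40, with a library left out. The interaction gave 0, and 1 with DESeq2. The cause of these shifts was not tested.

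Labels give the groups the same replicate numbers, but in no comparison did all same-numbered libraries deviate together with correlations over 0.1 (0.001, 0.29 and 0.411 for INSL3-KI against WT at P23), so the numbers were not treated as pairs. With a replicate block the call counts were 0 for INSL3-KI against WT at P23 and 0 for the INSL3-KI testis at P8, 3 for P40, and the same as without it in the other comparisons. Under the block Tnnt1 in the P8 INSL3-KI testis changed by 0.0266 and the Tnnc1 interaction was 0.0276.

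Shares of INSL3-KI against WT at P8 differed by -20.5 to -15.9 percentage points for Tnni1 with a library left out and by -24.4 with raw counts, by 47.8 to 54.2 for Tnnt1, 6.50 to 10.5 for Tnnt2 and -17.5 to -14.5 for Tnnc1. INSL3-KO against WT gave -1.56 to 3.06 for Tnni1, below 0 without WT replicate 2, -2.30 to -0.685 for Tnnt1, -6.15 to -4.55 for Tnnt2 and -6.28 to -3.30 for Tnnc1.

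Signs turned only among troponins that were not called. Tnni3 in INSL3-KI against WT at P8 was 0.24 with library size only, 0.22 with limma on log2(FPKM + 1) and 0.31 with + 0.1. In INSL3-KO it was 0.0484 with library size only and -0.25 to 0.0612 with libraries left out, and in INSL3-KI against INSL3-KO it was -0.0044 with DESeq2, -0.0023 without a filter and -0.18 to 0.14 with libraries left out. Tnni1 in WT with age ran from -0.16 to 0.86, and in INSL3-KI with age Tnni2 ran from -2.36 to 0.57 and Tnnc2 was -0.37 with limma on + 0.1. In the P8 testis Tnnt1 in INSL3-KI was 0.0043 with library size only, 0.0077 and 0.0299 with limma and -0.50 to 0.39 with libraries left out, and -0.14 to 0.66 in INSL3-KO. In the P23 INSL3-KI testis Tnnc2 was 0.32 with library size only, 0.11 and 0.27 with limma and -0.51 to 0.12 with libraries left out. For the interaction Tnnt2 was -0.31 and -1.19 with limma and -1.14 to 1.11 with libraries left out, Tnnc1 ran from -0.54 to 0.41 and Tnnc2 from -1.06 to 0.53.

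With library size as the only scaling, the median log2 fold change over the genes tested went from 0.02 to 0.34 for INSL3-KI against WT at P8, from 0.03 to 0.20 for INSL3-KO and from 0.11 to 0.41 at P23. The share of called genes that were lower went from 40.2% to 26.5%, from 49.5% to 39.6% and from 91.7% to 80.6%. It went from 46.9% to 32.9% for INSL3-KI against INSL3-KO, from 50.2% to 70.9% for WT gubernaculum against testis, from 51.8% to 34.2% and 60.6% to 48.7% for INSL3-KI and INSL3-KO in the P8 testis, from 57.4% to 28.7% and 51.8% to 38.7% in the P23 testis, and from 46.4% to 27.2% for INSL3-KI in the P40 testis, where the median over all genes went from 0.09 to 0.70. The troponins at a few counts are limited by depth, and 3 libraries a group limit every p.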
